A study of Mus musculus with 2 samples.

Results

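The data described here are the transcript levels of *Fas* and of 9 genes of the Bcl2 family in mouse embryonic stem cells (mESCs) depleted of AIMP3, an accessory protein of the complex that holds several aminoacyl-tRNA synthetases together. The 10 genes are *Bax* and *Bak1*, *Bbc3*, *Pmaip1*, *Bid* and *Bcl2l11*, *Bcl2*, *Bcl2l1* and *Mcl1*, and *Fas*. They were found by looking up the RefSeq accession of each probe, and make up 10 of the 20887 genes with a symbol and 12 of the 55681 probes on the array. All 12 probes gave a signal well above background in every channel and passed the filter on dim probes, and 0 spots were saturated.

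The mESCs were AIMP3f/f;cre-ERT2, which means that both copies of the AIMP3 gene (*Eef1e1*) were flanked by recombination sites and that the cells carried a Cre recombinase activated by tamoxifen. AIMP3-depleted cells received 2 µM tamoxifen for 4 days, and the control cells of the same genotype received ethanol for as long, both in medium with LIF. RNA of 2 AIMP3-depleted samples was labelled with Cy5, and each was hybridized to an array of its own (array 1 for replicate 1 and array 2 for replicate 2) against RNA of 2 control samples, which had been combined into 1 pool and labelled with Cy3. Cells with tamoxifen but without the floxed alleles were not analysed here, so that tamoxifen, active Cre and the loss of AIMP3 cannot be told apart. The promoter that drives cre-ERT2 and the number of mESC clones behind the samples are not given in the sources used here. The Cy5 channel thus holds AIMP3-depleted RNA and the Cy3 channel control RNA. Each ratio below is a log2 ratio of AIMP3-depleted over control, the pool counts as 1 control sample, and the p-values measure only the spread between 2 arrays. Nothing in the labels says that these samples came from separate cultures, so the spread may be technical.

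Proteins of the Bcl2 family decide whether the outer membrane of the mitochondria is opened, the step that releases cytochrome c and starts the caspases. BAX and BAK form the pores, the anti-apoptotic proteins BCL-2, BCL-XL (from *Bcl2l1*) and MCL-1 hold them in check, and the BH3-only proteins PUMA (*Bbc3*), NOXA (*Pmaip1*), BID and BIM (*Bcl2l11*) release or trigger them. FAS is a death receptor at the cell surface that starts caspases from outside. *Bax*, *Bbc3*, *Pmaip1* and *Fas* are textbook targets of the transcription factor p53, and mESCs are known as cells that die readily after DNA damage.

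The AIMP3 transcript was lowered on both arrays and still detected. The log2 ratio of *Eef1e1* was -0.90 on each, with an adjusted p of 7.56e-05 by limma, and whether its probe lies in the deleted part of the gene was not examined. The depth was alike, with a median signal over background between 2.68 and 3.31 and with 59.3% to 60.6% of the spots well above background in each channel.

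Of the 10 genes, *Bcl2l1* and *Fas* were raised in AIMP3-depleted mESCs, 0 were lowered, and the other 8 did not pass the test. A gene was called raised or lowered when its brightest probe was over 1.5-fold with an adjusted p under 0.05 by limma over 33043 tested probes. By this rule 6.31% of 24052 tested genes were called, 5.52% as raised and 0.79% as lowered. One of the raised members acts against cell death and the other for it. The median log2 ratio of the 10 genes was 0.07, with 0.09 on array 1 and 0.03 on array 2, beside a median of 0.02 over all tested genes.

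**Figure D1:**
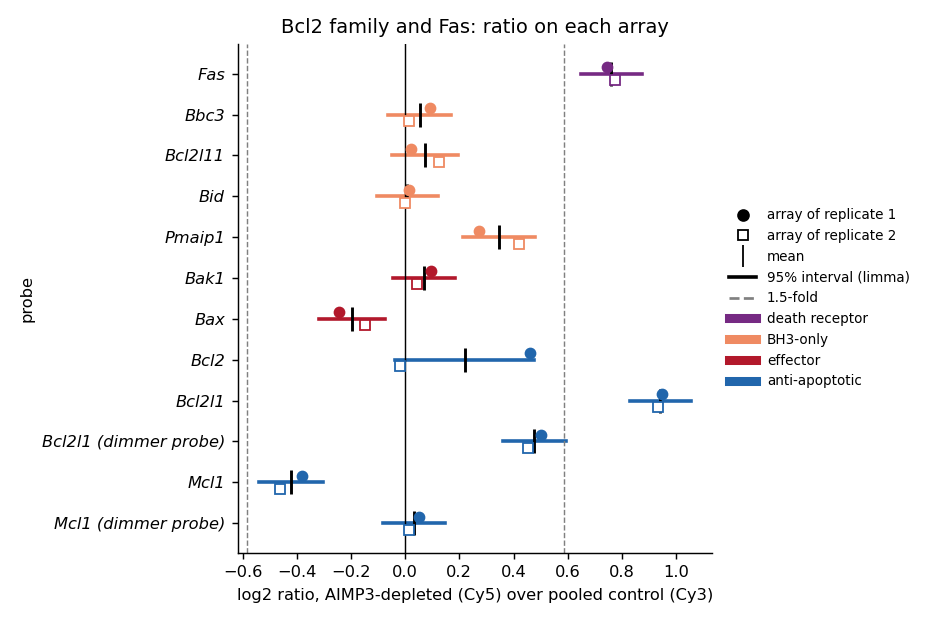
Log2 ratio of AIMP3-depleted over pooled control RNA (horizontal axis) for the 12 probes of the 10 genes (vertical axis), with array 1 as a filled circle, array 2 as an open square, their mean as a black stroke and the 95% interval by limma as a bar. The brightest probe of Bcl2l1 (mean 0.94) and the probe of Fas (0.76) lie to the right of the dashed line at 1.5-fold, and the other 10 probes lie between the dashed lines.

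The promoters of 4 of the genes are shown here because *Fas*, *Bax* and *Bbc3* are known p53 targets with different ratios and *Bcl2l1* had the largest ratio of the 10. The sequences are the 250 bases before a transcription start in RefSeq (GRCm38.p6), written 5′ to 3′ on the strand of the gene, and the table held 14 such windows for 9 of the 10 genes. *Pmaip1* had no entry. Capitals mark matches to the 10-base p53 half-site consensus or to GGGCGG, the core of the GC box, on either strand, and neighbouring GGGCGG matches may overlap, as at the end of the *Bbc3* window.
Fas, chr19:34290409-34290658, plus strand: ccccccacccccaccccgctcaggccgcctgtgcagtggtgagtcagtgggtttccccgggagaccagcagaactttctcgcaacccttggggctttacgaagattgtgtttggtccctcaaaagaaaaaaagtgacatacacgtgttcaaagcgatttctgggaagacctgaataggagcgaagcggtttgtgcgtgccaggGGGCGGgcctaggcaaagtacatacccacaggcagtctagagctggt
Bcl2l1, chr2:152831729-152831978, minus strand, the farthest upstream of 3 starts: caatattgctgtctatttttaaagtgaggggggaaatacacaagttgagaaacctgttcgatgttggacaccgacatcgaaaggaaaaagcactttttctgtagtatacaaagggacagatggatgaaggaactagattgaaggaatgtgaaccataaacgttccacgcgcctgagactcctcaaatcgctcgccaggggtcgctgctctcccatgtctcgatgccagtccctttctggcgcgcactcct
Bax, chr7:45466899-45467148, minus strand: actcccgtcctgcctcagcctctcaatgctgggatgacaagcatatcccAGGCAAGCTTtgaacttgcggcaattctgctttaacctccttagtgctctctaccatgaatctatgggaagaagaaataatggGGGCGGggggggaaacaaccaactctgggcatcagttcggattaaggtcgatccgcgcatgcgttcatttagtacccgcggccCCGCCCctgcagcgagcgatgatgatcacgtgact
Bbc3, chr7:16309333-16309582, plus strand, the farthest upstream of 3 starts: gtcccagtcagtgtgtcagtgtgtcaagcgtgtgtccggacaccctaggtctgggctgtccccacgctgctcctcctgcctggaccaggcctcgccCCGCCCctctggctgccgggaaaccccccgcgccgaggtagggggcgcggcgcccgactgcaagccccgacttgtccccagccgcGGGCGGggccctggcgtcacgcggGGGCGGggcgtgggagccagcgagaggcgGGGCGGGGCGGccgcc
A p53 half-site was found in 1 of the 14 windows, that of *Bax*, where it begins at position -201 from the start, and in 7.13% of all 32851 promoter windows of the same length. GGGCGG was found in 10 of the 14 windows, covering 7 of the 9 genes, and in 32.7% of all windows. *Fas* has 1 match, *Bax* has 2, the *Bbc3* window printed above has 5, and the 3 windows of *Bcl2l1* have 0. CCAAT was in 3 of the 14 windows (33.8% of all) and TATAAA in 0 (12.4% of all). The GC content of the 14 windows ran from 47.6% for the *Bcl2l1* window printed above to 81.6% for another start of *Bbc3*. These matches describe the letters of the windows, and p53 binding was not measured on these arrays.

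*Fas* encodes the receptor of Fas ligand. The log2 intensity of its probe was 8.86 and 8.85 in the Cy3 channel of the 2 arrays and 9.61 and 9.63 in the Cy5 channel, so that both AIMP3-depleted samples lay above both readings of the pool. The probe is spotted 2 times on each array, with log2 ratios of 0.78 and 0.72 on array 1 and of 0.73 and 0.82 on array 2. The 4 spots thus differed among themselves by far less than they differed from 0. The mean log2 ratio was 0.76 ± 0.020 (SD, n = 2), a 1.69-fold rise (95% interval 0.65 to 0.87 on the log2 scale, adjusted p = 0.000112 by limma). It was exceeded by 2.67% of the tested probes.

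*Bcl2l1* encodes BCL-XL, and from another splice form the pro-apoptotic BCL-XS. Its brighter probe read 13.48 and 13.51 in the Cy3 channel and 14.43 and 14.45 in the Cy5 channel. The channels did not overlap, and the repeat readings of each differed by at most 0.03. The log2 ratio was 0.95 on array 1 and 0.93 on array 2, a mean of 0.94 ± 0.010 (SD, n = 2) or 1.92-fold (95% interval 0.83 to 1.05, adjusted p = 7.13e-05 by limma). Of all tested probes 1.27% had a higher ratio.

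A second probe of *Bcl2l1*, annotated to the same RefSeq transcript, was far dimmer. It read 8.09 and 8.15 in the Cy3 channel and 8.59 and 8.60 in the Cy5 channel, with log2 ratios of 0.50 and 0.45. Its mean of 0.48 ± 0.036 (SD, n = 2) pointed the same way but was 1.39-fold, under the fold threshold (adjusted p = 0.000526 by limma). The 95% intervals of the probes, 0.36 to 0.59 and 0.83 to 1.05, did not overlap. With both probes averaged the log2 ratio of *Bcl2l1* was 0.71, still over 1.5-fold. Neither probe separates BCL-XL from BCL-XS here, because their positions on the transcript were not used.

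*Mcl1* encodes the short-lived anti-apoptotic protein MCL-1, and its 2 probes differed as well. The brighter one read 15.74 and 15.72 in the Cy3 channel and 15.36 and 15.26 in the Cy5 channel. Both AIMP3-depleted samples were below the pool, with log2 ratios of -0.38 and -0.46. The mean was -0.42 ± 0.057 (SD, n = 2), or 0.747 of the control, with an adjusted p of 0.00094 by limma, and did not reach 1.5-fold. The other probe, with 13.89 and 13.84 in the Cy3 channel against 13.94 and 13.85, gave a log2 ratio of 0.03 ± 0.026 (SD, n = 2) at an adjusted p of 0.595. Its 95% interval ran from -0.08 to 0.15 and that of the brighter probe from -0.54 to -0.30, so the size of any difference in *Mcl1* depended on the probe. The 668 tested probes within 0.5 log2 units of the brighter probe's mean intensity had a median log2 ratio of -0.07.

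*Bcl2*, the founding anti-apoptotic member, was the gene whose arrays differed most. On array 1 it read 8.26 in the Cy3 channel and 8.72 in the Cy5 channel, and on array 2 it read 8.46 and 8.44. The log2 ratios were therefore 0.46 and -0.02. The mean of 0.22 ± 0.34 (SD, n = 2) had a 95% interval from -0.04 to 0.48 and an adjusted p of 0.128 by limma, so that neither a rise of up to 0.48 nor the lack of one could be told from these arrays. The pool is the same RNA on both arrays, and its 2 readings of *Bcl2* differed by 0.20, against an SD of 0.13 over all tested probes for that difference.

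**Figure D2:**
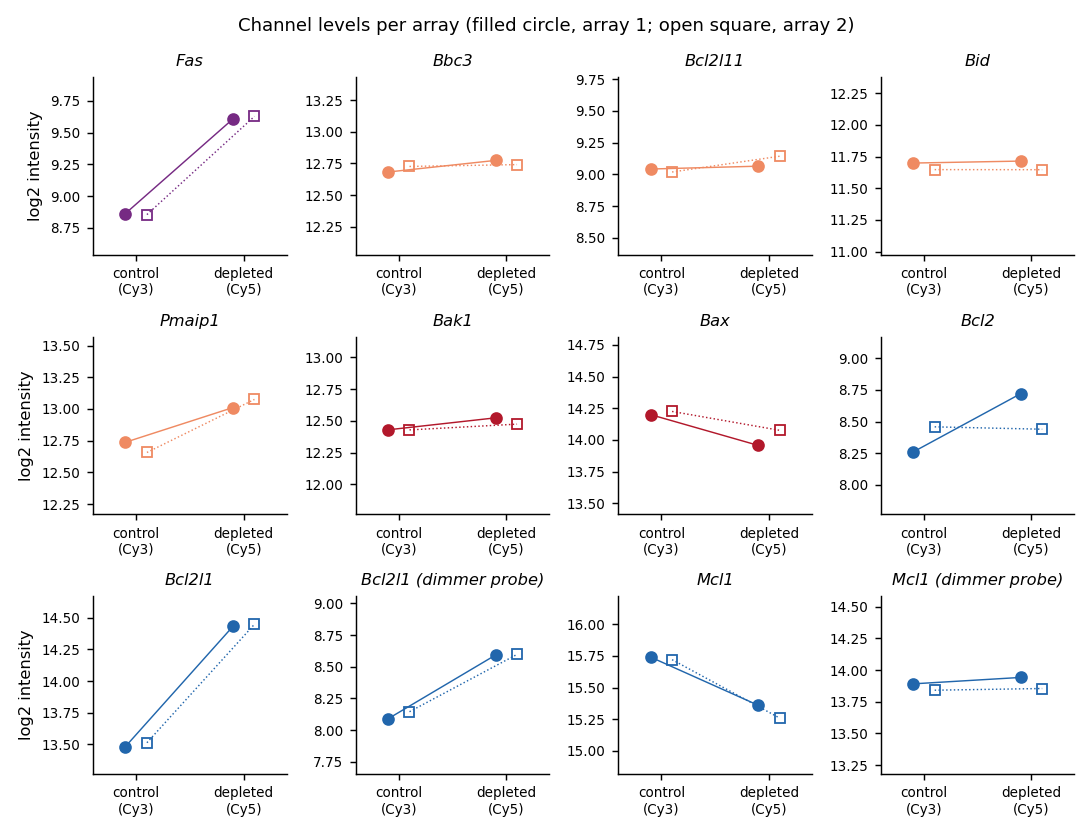
Normalized log2 intensity of each probe in the control channel (Cy3) and in the channel of AIMP3-depleted RNA (Cy5), with array 1 as filled circles and solid lines and array 2 as open squares and dotted lines. Each panel spans the same range of 1.4 log2 units around its own mean, and the lines run upward and nearly parallel for Fas and for both probes of Bcl2l1, whereas those of Bcl2 part. Levels of different probes cannot be compared.

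The pore-forming members had small ratios. *Bax* read 14.20 and 14.22 in the Cy3 channel and 13.96 and 14.08 in the Cy5 channel. Both AIMP3-depleted samples were slightly below the pool, with log2 ratios of -0.24 and -0.15 and a mean of -0.20 ± 0.066 (SD, n = 2), or 0.873 of the control (95% interval -0.32 to -0.07, adjusted p = 0.0184 by limma). *Bax* was thus under 1.5-fold. The 1341 tested probes within 0.5 log2 units of its mean intensity had a median log2 ratio of -0.07, which leaves -0.13 for *Bax*, and the upper end of its interval lay at about that median. With median centring in place of loess the log2 ratio of *Bax* turned to 0.11, against a median of 0.15 over all tested probes under that setting. *Bak1*, which does the same work at the mitochondria as *Bax*, read 12.43 on both arrays in the Cy3 channel and 12.52 and 12.47 in the other. Its log2 ratio was 0.07 ± 0.035 (SD, n = 2; 95% interval -0.04 to 0.18, adjusted p = 0.258 by limma).

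Among the BH3-only genes, *Pmaip1* had the largest ratio. Its control readings were 12.74 and 12.66 and its AIMP3-depleted readings 13.01 and 13.08. The channels did not overlap, with log2 ratios of 0.27 and 0.42, but the mean of 0.35 ± 0.10 (SD, n = 2) was 1.27-fold and stayed under the fold threshold (95% interval 0.21 to 0.48, adjusted p = 0.00295 by limma). A higher ratio was found for 12.4% of the tested probes. Median centring moved it to 0.59, just over 1.5-fold.

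*Bbc3* encodes PUMA, a strong killer among p53 targets. It read 12.68 and 12.73 in the Cy3 channel and 12.77 and 12.74 in the Cy5 channel, which is a log2 ratio of 0.09 on one array and 0.01 on the other. The mean was 0.05 ± 0.055 (SD, n = 2) at an adjusted p of 0.397, and the upper end of its 95% interval was 0.17, below the interval of *Fas*. *Bid*, whose protein links death receptors to the mitochondria once cut by caspase-8, had log2 ratios of 0.016 and -0.00069 (95% interval -0.10 to 0.12, adjusted p = 0.905 by limma). For *Bcl2l11* they were 0.02 and 0.12 (95% interval -0.05 to 0.20, adjusted p = 0.266 by limma), with control readings of 9.04 and 9.02 against 9.06 and 9.14. The intervals of *Bbc3*, *Bid*, *Bcl2l11* and *Bak1* all lay within 1.5-fold of the pool.

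The comparison of pro-apoptotic p53 targets with anti-apoptotic members did not set the groups apart. *Fas* (0.76), *Pmaip1* (0.35), *Bbc3* (0.05) and *Bax* (-0.20) had a median log2 ratio of 0.20, with 0.18 on array 1 and 0.22 on array 2. *Bcl2l1* (0.94), *Bcl2* (0.22) and *Mcl1* (-0.42) had a median of 0.22, with 0.46 and -0.02 on the arrays. The medians differed by -0.02, and by -0.28 or 0.24 on single arrays, so that the sign depended on the array. *Bcl2* is the middle one of its group of 3, and its spread between arrays set that of the difference. Each group held 1 raised gene and reached from below 0 to above 1.5-fold. Members are not replicates, and no p was computed for this difference.

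Without regard to size, 5 of the 10 genes had an adjusted p under 0.05 by limma, against 51.8% of all tested genes. They were *Bcl2l1*, *Fas* and *Pmaip1* with a positive ratio and *Mcl1* and *Bax* with a negative one. This share of the members lay next to that of all genes.

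**Figure D3:**
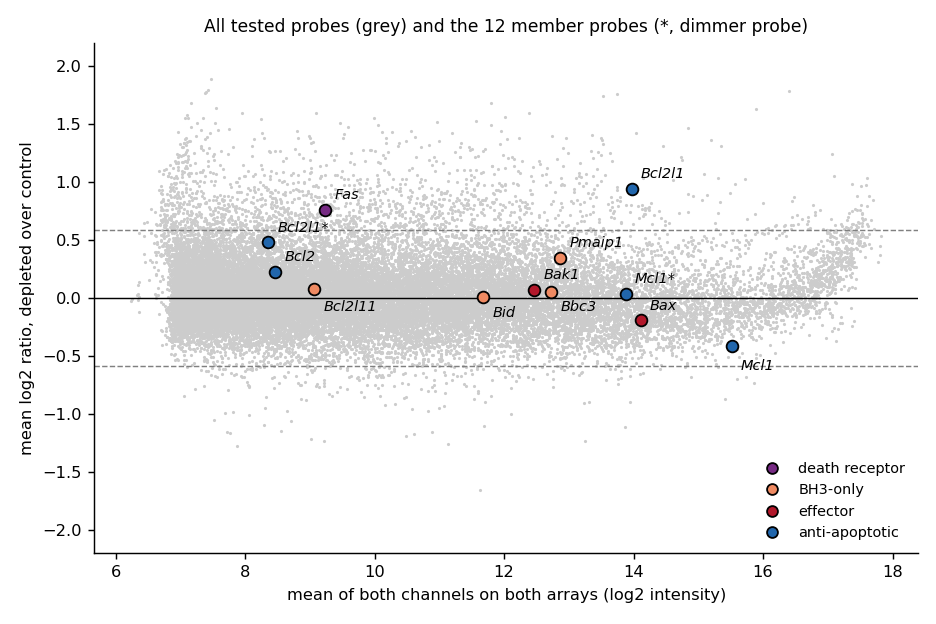
Mean log2 ratio over both arrays (vertical axis) against mean log2 intensity (horizontal axis) for the 33043 tested probes in grey and the 12 probes of the members in colour, with dashed lines at 1.5-fold. The brighter probe of Bcl2l1 and the probe of Fas lie over the upper dashed line, and the other member probes lie between the dashed lines.

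The other genes of these pathways were examined in 4 lists. In the death receptor pathway, 17 of 20 genes were tested, 4 were raised (5.52% of all tested genes were) and 0 were lowered, with a median log2 ratio of 0.16. Regardless of size, 11 of the 17 had an adjusted p under 0.05 by limma, against 51.8% of all tested genes. Of these 11, 9 had a positive and 2 a negative ratio. The lowest was *Tnfrsf22* with -0.52 at an adjusted p of 0.000497 by limma, and 0.03 at a dimmer probe. It was called lowered with the processed signals and in the deposited table. *Tnfrsf1a*, the main receptor of tumour necrosis factor, was raised with a log2 ratio of 0.67 ± 0.059 (SD, n = 2) at an adjusted p of 0.000191, and its other probe gave 0.47. *Ripk1*, the kinase recruited to that receptor, had 0.67 ± 0.13 (SD, n = 2) at an adjusted p of 0.000329. *Tnfrsf23*, a decoy receptor for TRAIL, had 0.64 ± 0.12 (SD, n = 2) at an adjusted p of 0.000376, while a dimmer probe, whose control channel was not well above background on either array, gave 0.25. With the processed signals its ratio was 0.56 at the brighter probe, under 1.5-fold. *Casp8* encodes the initiator caspase that FAS activates. Its log2 ratio of 0.63 ± 0.24 (SD, n = 2) at an adjusted p of 0.00137 was uneven, with 0.80 on array 1 and 0.46, under 1.5-fold, on array 2. *Ripk1* (0.58 on array 1, 0.76 on array 2) and *Tnfrsf23* (0.55 and 0.73) were under 1.5-fold on array 1 and over it on array 2. *Fasl*, which encodes the ligand of FAS, was not well above background in any channel and was not tested, and the same held for *Tnfsf10*. *Tnf* was left out because it was not well above background on array 1.

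Of the other Bcl2 family genes 11 of 14 were tested, 1 was raised and 0 were lowered, against 5.52% and 0.79% of all tested genes. Their median log2 ratio was -0.01. Regardless of size, 9 of the 11 had an adjusted p under 0.05 by limma, against 51.8% of all tested genes. Of these 9, 4 had a positive and 5 a negative ratio, the lowest being -0.53 for *Bok* and -0.41 for *Bcl2l14*. The raised gene was *Bcl2a1d*, an anti-apoptotic relative, with 0.71 ± 0.036 (SD, n = 2) at an adjusted p of 0.00014, but its control channel was not well above background on array 1, where it passed the filter through the AIMP3-depleted channel alone. It was not tested under the stricter filter, and its log2 ratio was 1.53 with the processed signals and 1.57 in the deposited table. *Bcl2a1d* is one of several near-identical mouse copies, and its probe may also take up their transcripts. *Bcl2a1a* and *Bcl2a1b* had no probe under their accessions, and *Bcl2l10* was too dim to be tested. Of the genes for the apoptosome, the caspases and their inhibitors 18 of 18 were tested and 0 passed the test, with a median of -0.08. The highest ratio among them was 0.44, that of *Apaf1*, the scaffold of the apoptosome. Regardless of size, 11 of these 18 genes had an adjusted p under 0.05 by limma, 4 with a positive and 7 with a negative ratio, against 51.8% of all tested genes.

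Of 11 other p53-activated apoptosis genes 2 were raised (5.52% of all tested genes were), 0 were lowered and 9 did not pass the test. Their median log2 ratio was 0.23. Regardless of size, 8 of the 11 had an adjusted p under 0.05 by limma, against 51.8% of all tested genes. Of these 8, 7 had a positive and 1 a negative ratio. *Perp*, which encodes a membrane protein of desmosomes and of p53-driven apoptosis, had 1.02 ± 0.071 (SD, n = 2) at an adjusted p of 7.25e-05. *Trp53inp1*, a nuclear cofactor of p53, had 0.66 ± 0.045 (SD, n = 2) at an adjusted p of 0.000188, and 0.26 at a dimmer probe. *Trp73*, a relative of p53, had -0.08 at its brightest probe but 0.61, over the threshold, at a dimmer one. In all 4 lists 7 genes were raised and 0 were lowered, where 5.52% and 0.79% of all tested genes were. Among probes well above background in both channels on both arrays the counts were 6 and 0, and *Bcl2a1d* was not tested there. At any fold, 24 had an adjusted p under 0.05 by limma with a positive ratio and 15 with a negative one, against 51.8% of all tested genes in either direction. With the probes of a gene averaged, *Tnfrsf1a* (0.57), *Tnfrsf23* (0.44) and *Trp53inp1* (0.46) were under 1.5-fold, and the other 4 have 1 tested probe each.

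**Figure D4:**
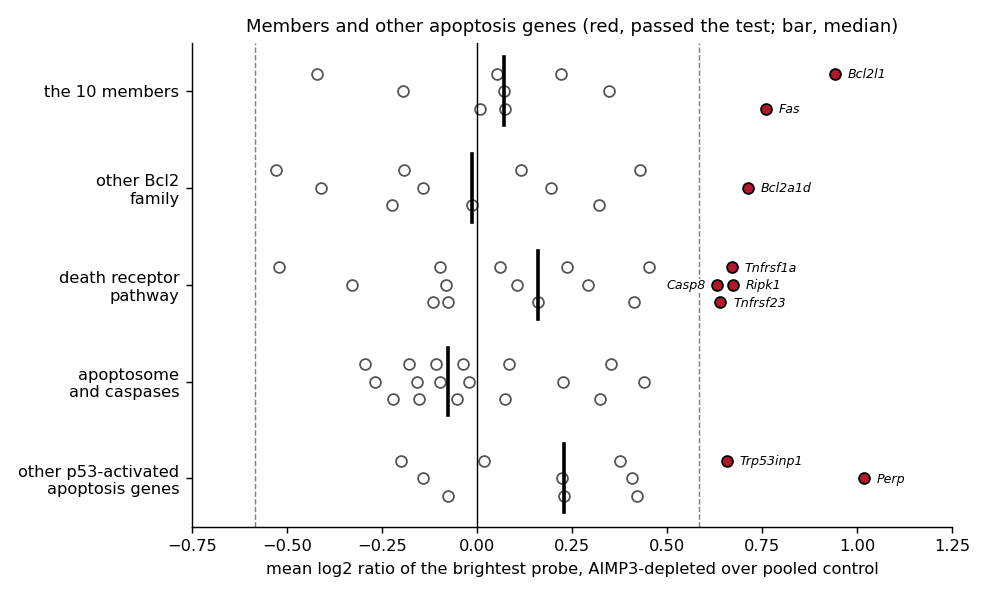
Mean log2 ratio of the brightest probe (horizontal axis) for the 10 members and for the tested genes of 4 other lists of apoptosis genes (1 gene is not drawn), with genes that passed the test in red and named, the median of each list as a bar and 1.5-fold as dashed lines. The list medians lie between -0.08 and 0.23, red points lie on the right side only, and the apoptosome and caspases have 0 red points.

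Most of the tested fibroblast and primitive endoderm markers were raised as well, against 5.52% of all tested genes. Of 22 fibroblast markers 20 were tested and 15 were raised, with a median log2 ratio of 0.81 and the highest, 1.47, for *Tagln*. All 20 were well above background in the Cy3 channel as well, and their summed intensity was 243536 and 250213 in the Cy5 channel against 135776 and 136960 in the Cy3 channel. The markers *Lum* and *Fap* were too dim to be tested. Of 15 primitive endoderm markers 14 were tested and 11 were raised, their median being 0.97 and the highest, that of *Sox17*, 1.44, with sums of 163083 and 162530 against 88612.9 and 91225, and 13 of the 14 were well above background in the control. Of 18 mESC markers 18 were tested, 1 was lowered (*Tdgf1*, -0.59 at each of its 3 probes) and 0 were raised, and their median was -0.09. Regardless of size, 11 of the 18 had an adjusted p under 0.05 by limma, against 51.8% of all tested genes, 4 with a positive and 7 with a negative ratio. The highest were 0.50 for *Dppa5a* and 0.49 for *Tbx3*. *Pou5f1*, *Nanog* and *Sox2* were well above background in both channels, with log2 ratios of -0.48, -0.38 and -0.53 at their brightest probes (adjusted p = 0.00346, 0.00184 and 0.000356 by limma), under 1.5-fold. A dimmer *Nanog* probe gave 0.06 (adjusted p = 0.292 by limma). The sums of the mESC list were 412331 and 401696 against 377693 and 378220, but without its brightest gene, *Dppa5a*, they were 217900 and 213600 against 241800 and 243200. The cells were generally kept on embryonic fibroblast feeders, and cells under drug treatment in medium conditioned by them. The part of these cell types in the ratios of *Fas* and *Bcl2l1* was not tested. In bulk RNA, fewer cells of a type and less RNA per cell cannot be told apart.

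Other ways of normalizing the arrays moved the raised members little. Relative to the median of all tested probes, the log2 ratio of the brighter *Bcl2l1* probe lay between 0.93 and 1.09 under 5 settings and that of *Fas* between 0.75 and 0.85. For *Mcl1* the brighter probe ranged from -0.43 to -0.17 and for *Bax* from -0.21 to -0.04, below the median in all 5. The dimmer *Bcl2l1* probe ranged from 0.45 to 0.68 and passed the test with the scanner software's processed signals (0.64), with median centring (0.60) and in the deposited table (0.68).

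**Figure D5:**
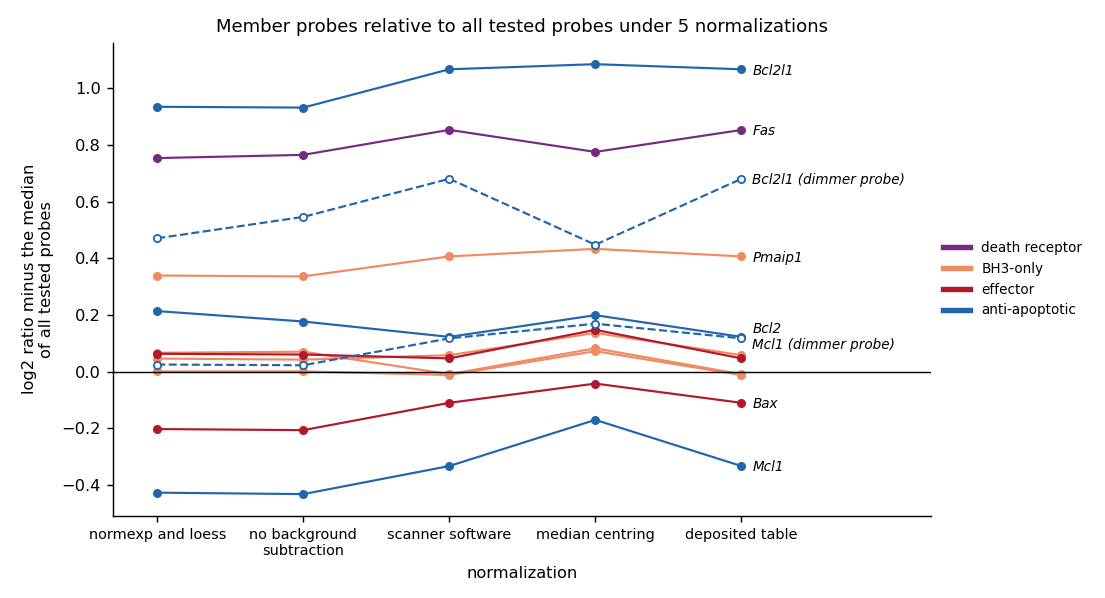
Log2 ratio of each probe minus the median of all tested probes (vertical axis) under 5 normalizations (horizontal axis), with dimmer probes as dashed lines and open circles. The deposited table holds the ratios of the scanner software with a constant added, so those 2 settings coincide on this scale. The brightest probes of Bcl2l1, Fas, Pmaip1, Bax and Mcl1 keep their order throughout. The dimmer probe of Bcl2l1 lies below Fas and that of Mcl1 above Bax in each setting.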

How the data were processed

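The study measured RNA of AIMP3-depleted and control mESCs on 2 two-colour Agilent mouse arrays of 62976 spots, both on 1 slide, without a dye swap. Feature Extraction 11.5.1.1 made the scanner files per the file headers. They hold deposited intensity values of each spot in each channel as median signals, median local backgrounds and background-corrected, dye-normalized processed signals, together with a deposited log10 ratio of Cy5 over Cy3 that was not used. The value table that the authors deposited holds a log2 ratio per probe. It equals the log2 ratio of the processed signals plus 0.04 within 0.01 for 99.7% of the probes on each array, so it runs as Cy5 over Cy3 and is no independent check. The study's methods describe the inverse, control over test. They name GeneSpring for the normalization, and the step that added the constant is not given in the sources used here. Of the columns with values per sample 0 were left out.

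The median signals were corrected with normexp (offset 50) and normalized by loess within each array in limma 3.58.1 (R 4.3.3, with version 1.17.8 of data.table and 2.0.0 of jsonlite), without control spots and without spots marked as outliers (215 and 227 spots). Spots of a probe were averaged. Probes not well above background in at least 1 channel of each array, 22638 of 55681, were not tested. Channel levels were scaled between arrays with limma's Aquantile. The mean log2 ratio was tested against 0 with lmFit and eBayes (1 residual and 5.29 prior degrees of freedom), adjusted by Benjamini-Hochberg over all tested probes. The pool's own spread between cultures is left out of these tests. A gene is represented by its brightest tested probe, and genes were named through RefSeq accessions, found for 31014 spots. Motifs were searched on both strands of 250-base windows from RefSeq (GRCm38.p6). In simulated arrays of 33043 probes for this comparison, 100 of 100 probes with a log2 ratio of 1 and 100 of 100 with 0.76 in either direction were recovered, and 1 unchanged probe was called. The simulated noise was drawn separately for each array around the median SD, without error shared through the pool or spread between cultures. These counts therefore leave out those sources of error.

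All members are named with every probe, as are the genes of the 4 other apoptosis lists that passed the test (or, for a list with none, its highest and lowest, of which 1 is not reported here) and *Eef1e1*. Other genes with values, markers included, were chosen after their values were seen. The members and lists were chosen with earlier results of these data known. Tried as alternatives were the deposited table, the processed signals, uncorrected signals, centring on the median, a looser and a stricter filter on dim probes, outlier spots kept, the mean of the probes of a gene, a fit over genes, other thresholds, the methods' t-test, and each replicate left out. The medians of probes of like intensity were added after the data were seen. The number of arrays limits the precision.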

Additional observations from a re-analysis of the deposited data

How the results depend on the processing

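*Bcl2l1* and *Fas* passed the test under each other background correction, normalization, filter and probe rule tried and in the deposited table. Median centring added *Pmaip1* (3 members called), a 2-fold threshold left 0, and adjusted p-values at any fold gave 5. Over all tested probes 5.71% were called, 10.5% with median centring, 10.6% with the processed signals and in the deposited table, 1.07% at 2-fold and 50.5% at any fold. The methods' t-test on 2 log2 ratios gave 2 members at its unadjusted threshold and 0 after Benjamini-Hochberg adjustment, a test with 1 residual degree of freedom, against 2 by limma. Without 1 of the replicates 2 members exceeded 1.5-fold each time, as values with no test.

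The 7 pathway genes became 11 with the processed signals (8 raised and 3 lowered), 10 in the deposited table (9 raised and 1 lowered), 12 with median centring, 6 with both channels well above background, 4 with the mean of the probes, 1 at 2-fold, 39 at any fold (24 with a positive and 15 with a negative ratio), and 4 and 0 with the methods' t-test before and after adjustment. Without 1 replicate 5 to 6 exceeded 1.5-fold, with *Casp8* under it without replicate 1 and *Ripk1* and *Tnfrsf23* under it without replicate 2.

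The signs of 4 members turned under some settings. *Bid* became -0.053 with the processed signals and -0.013 in the deposited table, *Bcl2l11* became -0.050 and -0.010, and *Bax* became 0.11 with median centring, which is -0.04 relative to the median of all tested probes there. Without 1 replicate, *Bid* ranged from -0.00069 to 0.016 and *Bcl2* from -0.019 to 0.46. The cause was not tested. The difference between the medians of p53 targets and anti-apoptotic members was -0.28 to 0.24 without 1 replicate and otherwise -0.02 to 0.11.

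Median centring moved the median of all tested probes to 0.15 from 0.01. Of all calls, 87.0% were rises with loess, 69.2% with the processed signals, 97.5% with median centring and 75.7% in the deposited table. Dye effects cannot be told apart from AIMP3 depletion, since dyes were not swapped. No paired analysis was possible because the control is 1 pool on both arrays, so each ratio is already within an array.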
